A study of Mus musculus with 12 samples.

Results

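Itaconate synthase and 9 antioxidant genes were followed in neutrophils from bone marrow (BM) and from the inflamed peritoneum (PT) of wild-type (WT) and MRP8-Bcl2 mice. The genes were taken by symbol from the deposited expression table, which lists 28987 genes. All 10 were present, and all 10 were among the 13456 genes tested, those that reached 1 TPM in 3 or more of the 12 libraries. TPM is the abundance of a gene's transcripts relative to all transcripts of the library, corrected for gene length, so levels of different genes can be set side by side. From BM to PT, Irg1, Slc7a11, Srxn1 and Nfe2l2 rose in both genotypes, Prdx5 fell in both, and Sod2, Hmox1, Gclm, Txnrd1 and Prdx1 did not pass the test in either.

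Cells of each genotype were taken from each site, which gave 4 groups of 3 libraries, named BM WT and PT WT for wild-type mice and BM Bcl2 and PT Bcl2 for the transgenic mice. All mice were FVB, and all had been injected intraperitoneally with 2 mL thioglycollate, a sterile irritant that draws neutrophils into the peritoneum, so the BM cells also came from injected animals and no uninjected group was used here. The transgenic mice express human Bcl-2, which blocks apoptosis, from human MRP8 regulatory regions that are active in myeloid cells. Sex and age were not given in the sources used here. The labels place collection at 6 h after injection and name macrophages as the source, whereas the study's methods give other times and its design text names neutrophils. The library columns carry no mouse number, so BM and PT libraries of the same mouse could not be matched, and the p-values measure the spread between these libraries, which may be technical in part.

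Between 9735 and 14305 genes were above 0 in a library, with the fewest in PT Bcl2 (9735 to 12138). The median TPM of the tested genes was 2.12 to 3.34 in PT Bcl2, below the 7.42 to 11.9 of BM Bcl2 and the 5.01 to 8.67 of PT WT and overlapping the 3.25 to 8.09 of BM WT. The 19 genes that each took over 1% of the TPM of some library took 31.7 to 68.7% in total. TPM keeps no read totals, so the depth was unknown. The deposited table lists mouse genes only, and mouse Bcl2 was read as a check of the transgene labels. The 6 WT libraries held 0.219 to 2.37 TPM of it and BM Bcl2 held 166 to 333 TPM. Of the PT Bcl2 libraries, numbers 7 and 8 held 82.8 and 58.6 TPM but number 9 held 0.695 TPM, which falls among the WT values, so results that library 9 changes are given with and without it.

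The labelled cell type was checked against marker genes, summed in TPM. The 8 neutrophil markers (S100a8, S100a9, Ly6g and others) summed to 188889 to 349107 (BM WT), 15172 to 55301 (PT WT), 76761 to 219019 (BM Bcl2) and 19256 to 70100 (PT Bcl2). S100a8 and S100a9 fell from BM to PT in both genotypes, calls that were lost in both with quantile normalization and in MRP8-Bcl2 with median centring. Csf3r, the receptor for granulocyte colony-stimulating factor, was called higher in PT of MRP8-Bcl2 mice (3.38, limma adjusted p = 0.0067), under every scaling tried, with 1.93 in WT (adjusted p = 0.189). Cxcr2 and Itgam had differences above 0 in both genotypes and were not called. Ly6g, which encodes the surface antigen used to define mouse neutrophils, lay at 588 to 1266 TPM in marrow and at 0 to 14.9 in peritoneum of WT mice. It overlapped between BM Bcl2 (51.5 to 1225) and PT Bcl2 (58.9 to 126), with -1.60 (limma adjusted p = 0.293). Retnlg (928 to 20198 TPM in BM WT, 193 to 1074 in PT WT) and Mmp9 (139 to 662, 112 to 256) were not called in either genotype. The 12 macrophage markers (Adgre1, Csf1r, C1qa and others) summed to 14.9 to 112 (BM WT), 82.0 to 115 (PT WT), 19.0 to 117 (BM Bcl2) and 35.3 to 152 (PT Bcl2). Of the 10 macrophage markers tested, 0 were called in either genotype, as were 0 of 6 B cell, 0 of 4 T cell and 0 of 3 eosinophil markers tested. In MRP8-Bcl2 this depended on the scaling. Median centring called 3 macrophage, 2 B cell, 2 eosinophil and 3 mast cell markers higher in PT, where 12.2% of all tested genes were. Quantile normalization called 2 macrophage, 1 B cell and 2 eosinophil markers, beside 5.04% of all tested genes. Leaving out the dominant genes called 1 B cell marker, beside 2.68%. Macrophages also express Irg1, Slc7a11, Hmox1 and Prdx1. The 10 erythroid markers summed to 66.8 to 172 TPM in BM WT and 120 to 1389 in BM Bcl2 but to at most 14.8 in any PT library, and the mast cell markers reached 635 in 1 PT WT library. Of the 5 mast cell markers tested, Cma1 was called higher in PT of WT mice, at 4.19 (limma adjusted p = 0.0246). In cells sorted in bulk, a change in the mix of cells and a change of RNA within each cell cannot be told apart, and the part of these markers in the results was not tested.

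Itaconate is made in mitochondria by decarboxylation of cis-aconitate, an intermediate of the tricarboxylic acid (TCA) cycle, by the product of Irg1 (also called Acod1). The gene is known for its strong induction in activated macrophages and neutrophils. Itaconate inhibits succinate dehydrogenase and modifies KEAP1, the adaptor that targets the transcription factor NRF2 for degradation. NRF2, encoded by Nfe2l2, then binds antioxidant response elements together with small MAF proteins and drives genes for cystine uptake, glutathione synthesis, the thioredoxin system and heme breakdown. Gclm, Txnrd1, Srxn1, Slc7a11, Prdx1 and Hmox1 are well-known NRF2 targets. Neutrophils make superoxide in large amounts through the phagocyte NADPH oxidase, and these systems limit the damage that follows.

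**Figure D1:**
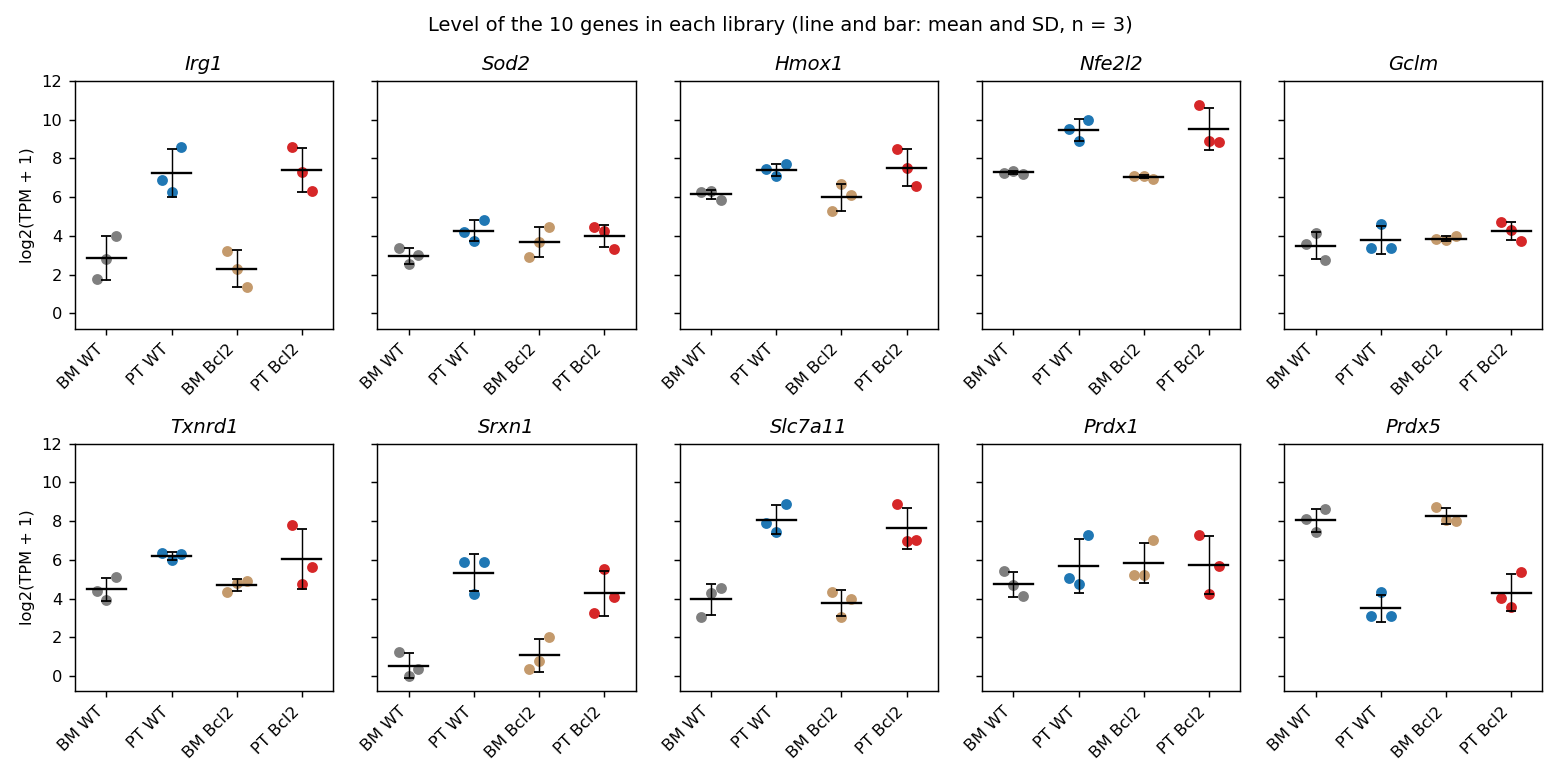
Level of each of the 10 genes as log2(TPM + 1) in each of the 12 libraries, with the mean and SD (n = 3) of each group. Irg1, Nfe2l2, Srxn1 and Slc7a11 lie higher in every PT library than in every BM library of the same genotype, and Prdx5 lies lower.

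Irg1 (ENSMUSG00000022126, chr14:103046977-103056573, plus strand, GRCm38) was low in marrow and abundant in the peritoneum. It was at 2.39, 6.04 and 15.1 TPM in the BM WT libraries and at 75.1, 118 and 389 TPM in the PT WT libraries. In MRP8-Bcl2 mice it was at 1.52, 3.96 and 8.42 TPM in BM and at 79.9, 158 and 384 TPM in PT. The BM and PT groups did not overlap in either genotype, and the lowest PT library held more Irg1 than the highest BM library. Differences are given on the log2(TPM + 1) scale, where the added 1 makes the change of a gene at low TPM look smaller. The difference was 4.39 ± 0.82 (SE) in WT (limma adjusted p = 0.0112). In MRP8-Bcl2 it was 5.12 ± 0.82 (adjusted p = 0.00161). Within each library, Irg1 ranked at percentile 26.6 to 72.9 of the tested genes in marrow and 92.9 to 98.0 in peritoneum of WT mice. In MRP8-Bcl2 mice these percentiles were 19.1 to 52.6 and 94.8 to 97.6. Ranks do not change when all values of a library are multiplied by a factor.

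The stretch before the Irg1 start site is shown because Irg1 had the largest rise of the 10 genes in MRP8-Bcl2 mice. Sequences were taken from RefSeq promoters of GRCm38.p6, covering 250 bases before to 50 bases after a start site, and 9 of the 10 genes had at least 1 promoter there. In the 100 bases printed, bases -110 to -11 from the start (chr14:103046902-103047001, plus strand), the capitals mark a TATAAA at -28 to -23. The last 25 of these bases, the TATAAA among them, lie in the first Acod1 exon as GENCODE places it.
Irg1: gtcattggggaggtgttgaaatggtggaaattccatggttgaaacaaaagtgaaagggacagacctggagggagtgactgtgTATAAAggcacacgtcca
TATAAA occurred on the gene's strand or its complement in 13.6% of the 32851 promoters of the table.

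The genes whose pattern over the 12 libraries lay nearest to that of Irg1 were taken by the root mean square difference of log2(TPM + 1), with each gene centred on its own mean. Outside the 10 genes these were Cxcl2 (0.618), a neutrophil chemoattractant, Il1rn (0.658), the antagonist of the interleukin-1 receptor, Csf1 (0.689), the macrophage growth factor, Il1b (0.772) and Cd14 (0.779), the co-receptor for lipopolysaccharide. This is a description over 12 libraries that share 1 sequencing pool. Among the 10 genes, Slc7a11 lay nearest to Irg1, at 0.709 and rank 4 of all tested genes. Nfe2l2 followed at 1.41 (rank 110) and Srxn1 at 1.49 (rank 138), and Prdx5 lay at the far end at 4.66 (rank 13328).

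Nfe2l2 (ENSMUSG00000015839, chr2:75675513-75704641, minus strand), which encodes NRF2, was already abundant in marrow and rose further in the peritoneum. It was at 148, 151 and 163 TPM in WT marrow and at 469, 743 and 1012 TPM in WT peritoneum. In MRP8-Bcl2 mice it was at 123, 135 and 137 TPM in BM and at 466, 470 and 1735 TPM in PT. The BM libraries of each genotype lay close together, the PT libraries were spread, and the groups did not overlap. The log2 difference was 2.19 ± 0.53 in WT (limma adjusted p = 0.0385) and 2.45 ± 0.53 in the transgenic mice (adjusted p = 0.00694). The WT call was close to the threshold. It was lost in 11 of 20 alternative fits, among them the fits without library 2, 4, 5, 6, 10, 11 or 12 (adjusted p = 0.0574 to 0.126), while the log2 difference stayed between 1.92 and 2.49.

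Slc7a11 (ENSMUSG00000027737, chr3:49892526-50443614, minus strand) encodes the cystine transporter xCT, which brings in the cystine from which glutathione is built. It was at 7.35, 18.3 and 22.2 TPM in WT marrow and at 174, 236 and 479 TPM in WT peritoneum. In MRP8-Bcl2 mice it was at 7.31, 14.6 and 19.4 TPM in BM and at 127, 130 and 467 TPM in PT. Every PT library was far above every BM library. The log2 difference was 4.13 ± 0.67 in WT (limma adjusted p = 0.00533) and 3.84 ± 0.67 in the transgenic mice (adjusted p = 0.00242), and the gene was called in all 20 alternative fits of either comparison. The gene of its partner chain, Slc3a2, had log2 differences of 2.25 in WT and 1.93 in MRP8-Bcl2 that did not pass the test (adjusted p = 0.159 and 0.0951).

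Gclm (ENSMUSG00000028124, chr3:122245557-122270732, plus strand) encodes the modifier subunit of glutamate-cysteine ligase, the rate-limiting enzyme of glutathione synthesis. WT marrow held 5.68, 11.1 and 16.9 TPM and WT peritoneum 9.20, 9.25 and 23.4 TPM. In MRP8-Bcl2 mice marrow held 12.6, 13.1 and 14.8 TPM and peritoneum 12.5, 18.7 and 24.9 TPM. The groups overlapped in both genotypes. In WT the log2 difference was 0.27 (95% interval -1.09 to 1.63), and it was 0.39 in MRP8-Bcl2 (-0.97 to 1.75). Gclm shares 296 exonic bases with Gm17494 on the opposite strand, which reached 35.7 TPM, and counting was not stated to use strand, so the reads of the pair could not be separated.

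Srxn1 (ENSMUSG00000032802, chr2:152105516-152111376, plus strand) encodes sulfiredoxin, which restores peroxiredoxins that have been overoxidised. It was listed at 0, 0.279 and 1.35 TPM in WT marrow and at 18.1, 57.6 and 58.2 TPM in WT peritoneum. In MRP8-Bcl2 mice it was at 0.285, 0.732 and 3.09 TPM in BM and at 8.38, 15.7 and 45.04 TPM in PT. Srxn1 was thus near the bottom of the measured range in marrow and did not overlap between BM and PT in either genotype. The log2 difference was 4.81 ± 0.82 in WT (limma adjusted p = 0.00635) and 3.21 ± 0.82 in the transgenic mice (adjusted p = 0.0148). The MRP8-Bcl2 call was lost without library 2 (adjusted p = 0.0506) and without library 8 (adjusted p = 0.0637).

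Txnrd1 (ENSMUSG00000020250, chr10:82833951-82897712, plus strand) encodes cytosolic thioredoxin reductase, which keeps thioredoxin reduced with electrons from NADPH. It was at 14.2, 20.3 and 33.3 TPM in WT marrow and at 62.1, 78.7 and 80.6 TPM in WT peritoneum, without overlap. The log2 difference in WT was 1.73 ± 0.69 (limma adjusted p = 0.222). In MRP8-Bcl2 mice the levels were 19.1, 27.4 and 29.2 TPM in BM and 25.6, 47.8 and 220 TPM in PT, so that 1 PT library lay within the BM range. The log2 difference there was 1.35 ± 0.69 (adjusted p = 0.17), or 0.48 without library 7, which holds the highest value, and 2.01 without library 8 (adjusted p = 0.565 and 0.066).

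Of the 2 peroxiredoxin genes, Prdx5 was called lower in both genotypes and Prdx1 was not called in either. Prdx5 (ENSMUSG00000024953, chr19:6906697-6910106, minus strand) encodes a peroxiredoxin of mitochondria, peroxisomes and cytosol. It was at 170, 274 and 389 TPM in WT marrow and at 7.56, 7.68 and 18.9 TPM in WT peritoneum. In MRP8-Bcl2 mice it was at 255, 266 and 431 TPM in BM and at 10.7, 15.1 and 40.2 TPM in PT. Prdx5 was the most abundant of the 10 genes in both BM groups and had the lowest median in both PT groups, the reverse of Nfe2l2 and Slc7a11 in direction. The log2 difference was -4.53 ± 0.60 in WT (limma adjusted p = 0.00144) and -3.97 ± 0.60 in the transgenic mice (adjusted p = 0.0013), and the call was kept in all 20 alternative fits of either comparison. The highest PT Bcl2 value belongs to library 9, and leaving out single libraries gave -4.50 to -3.59 in MRP8-Bcl2. Prdx5 shares 671 exonic bases with Trmt112 on the opposite strand, and 16.9% of its 31-base words occur in that gene. Trmt112 was at 0 to 44.1 TPM over the 12 libraries, below the lowest BM level of Prdx5 but overlapping its PT levels, so the PT values carry more of this uncertainty.

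Prdx1 (ENSMUSG00000028691, chr4:116685544-116700822, plus strand) encodes a cytosolic peroxiredoxin. WT marrow held 16.3, 25.1 and 41.6 TPM and WT peritoneum 25.7, 32.0 and 153 TPM. In MRP8-Bcl2 mice marrow held 36.3, 36.7 and 129 TPM and peritoneum 17.98, 50.4 and 153 TPM. In all groups but BM WT a single library stood well above the others, and the groups overlapped. In WT the log2 difference was 0.94 (95% interval -0.87 to 2.74), and it was -0.09 in MRP8-Bcl2 (-1.90 to 1.71). Of its 31-base words, 15.4% occur in other genes, most of them in the pseudogene Gm7204, which was at 0 TPM throughout.

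Sod2 (ENSMUSG00000006818, chr17:13006846-13040063, plus strand), the mitochondrial superoxide dismutase, was at 4.81, 7.12 and 9.31 TPM in WT marrow and at 12.4, 17.4 and 27.7 TPM in WT peritoneum. These groups did not overlap, and the log2 difference was 1.29 ± 0.65 (limma adjusted p = 0.34). In MRP8-Bcl2 mice BM held 6.43, 11.8 and 20.8 TPM and PT held 9.13, 17.8 and 20.6 TPM, which overlapped, and the log2 difference was 0.33 ± 0.65 (adjusted p = 0.742). Over the exons of Sod2, 26.7% of the 31-base words also occur in other genes.

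Hmox1 (ENSMUSG00000005413, chr8:75093621-75100589, plus strand) encodes the inducible heme oxygenase, which releases iron, carbon monoxide and biliverdin from heme. It was at 57.7, 75.0 and 78.7 TPM in WT marrow and at 134, 171 and 210 TPM in WT peritoneum, without overlap. The log2 difference was 1.26 ± 0.56 (limma adjusted p = 0.278). In MRP8-Bcl2 mice it was at 37.3, 67.1 and 99.8 TPM in BM and at 94.7, 179 and 359 TPM in PT. The lowest of these PT values belongs to library 9, the library without the Bcl2 level of its group. With library 9 the log2 difference was 1.52 ± 0.56 (adjusted p = 0.0654), and without it 1.99 (adjusted p = 0.032), so Hmox1 was called in MRP8-Bcl2 only when that library was left out or when libraries were scaled by another method.

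**Figure D2:**
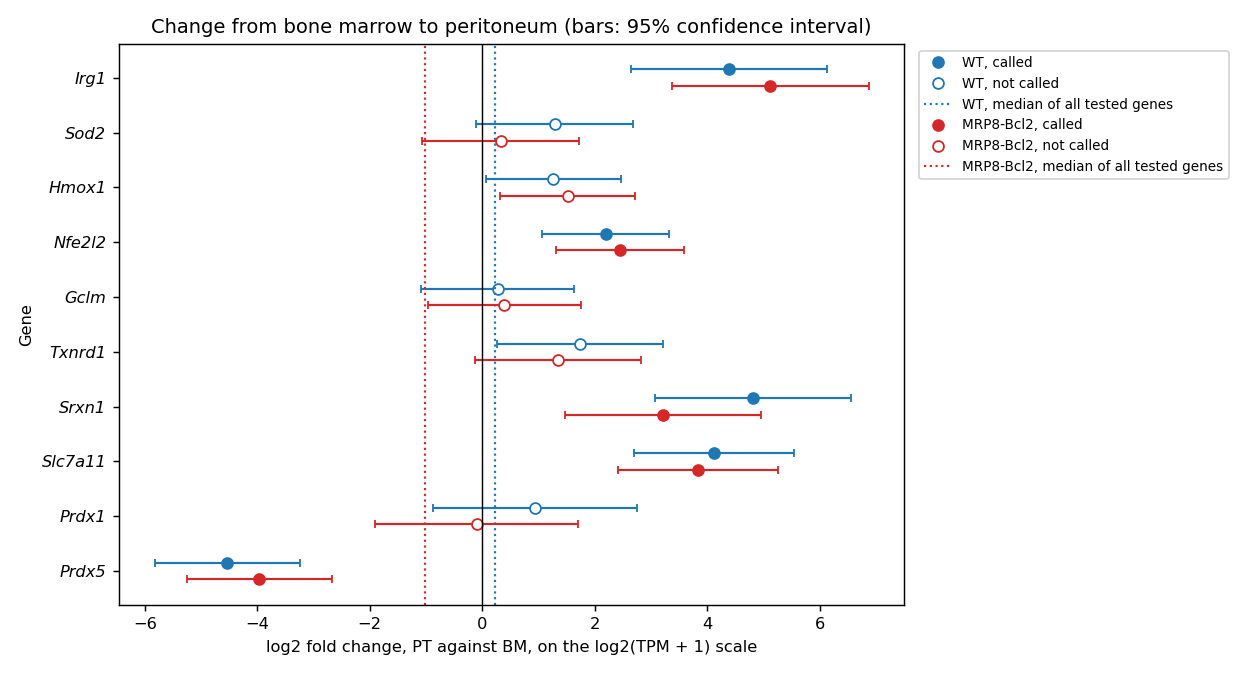
Difference between PT and BM on the log2(TPM + 1) scale for each gene and genotype, with 95% confidence intervals, filled where called. Dotted lines give the median of all tested genes, 0.22 in WT and -1.02 in MRP8-Bcl2, and the called genes lie on the same side of 0 in both genotypes.

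In WT, 4 of the 10 genes were called higher in PT, where 1.59% of all tested genes were, and 1 was called lower, where 1.22% were. In MRP8-Bcl2, 4 of the 10 were again called higher, against 2.31% of all tested genes, and 1 was called lower, against 19.1%. These shares moved with single libraries. In WT the share called higher was 0.303% without library 10, 0.455% without library 4, 0.699% without library 6, 0.797% without library 11 and 0.886% without library 12, and the share called lower was 0.379% to 0.804% without library 10, 4, 11 or 6. In MRP8-Bcl2 the share called lower was 8.17% without library 3, 10.4% without library 2 and 12.1% without library 8, and the share called higher was 1.14%, 1.35% and 1.51% without library 3, 2 and 7. To be called, a gene had to differ 2-fold or more with an adjusted p below 0.05. By unadjusted p alone, 7 of the 10 genes were below 0.05 in WT, where 16.5% of all tested genes were, and 6 in MRP8-Bcl2, where 37.2% were. The median log2 difference of the 10 genes was 1.51 in WT and 1.44 in MRP8-Bcl2, beside 0.22 and -1.02 over all tested genes. In MRP8-Bcl2 the median of the 10 genes was 0.76 without library 7 and 3.03 with median centring. The same 5 genes were called in both genotypes. These comparisons have no library in common but share 1 fit and its estimate of the spread. With only the groups compared in the fit, Nfe2l2 was not called in WT.

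In WT the groups separated for more genes than were called, and in MRP8-Bcl2 for the called genes alone. In WT, 7 of the 10 genes were higher in every PT than in every BM library, against 14.9% of tested genes, and 1 was lower, against 7.97%. In MRP8-Bcl2, 4 were higher (Irg1, Nfe2l2, Srxn1 and Slc7a11), against 5.18% of tested genes, and 1 was lower, against 32.6%. Sod2, Hmox1 and Txnrd1 were the genes that separated in WT and overlapped in MRP8-Bcl2.

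The PT libraries of a genotype also differed among themselves over many of the 10 genes at once. Library 7 held the highest value of PT Bcl2 for 8 of the 10 genes, while it held the highest value for 41.0% of tested genes whose values differed within that group. Library 12 held the highest value of PT WT for 6 of the 10, which is near its share of 55.6% of tested genes. Library 11 held the lowest value of PT WT for 8 of the 10, against 34.6%. These counts are a description of single libraries, and the genes within a library are not independent.

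The order of the genes by median TPM changed between the sites. In BM WT and BM Bcl2 it was Prdx5, Nfe2l2, Hmox1, Prdx1, Txnrd1, Slc7a11, Gclm, Sod2, Irg1 and Srxn1. In PT WT it was Nfe2l2, Slc7a11, Hmox1, Irg1, Txnrd1, Srxn1, Prdx1, Sod2, Gclm and Prdx5, and in PT Bcl2 it was Nfe2l2, Hmox1, Irg1, Slc7a11, Prdx1, Txnrd1, Gclm, Sod2, Srxn1 and Prdx5. In BM WT the ranges did not overlap for Prdx5 over Nfe2l2, Nfe2l2 over Hmox1, Hmox1 over Prdx1, and Irg1 over Srxn1. In BM Bcl2 this held for Prdx5 over Nfe2l2, Nfe2l2 over Hmox1, and Prdx1 over Txnrd1. In PT WT it held for Txnrd1 over Srxn1 alone, and in PT Bcl2 for Nfe2l2 over Hmox1 and Txnrd1 over Gclm. All other neighbours in these orders overlapped in range.

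The change from BM to PT was not shown to depend on the genotype for any of the 10 genes. The interaction was the log2 difference in MRP8-Bcl2 less that in WT. Its unadjusted p (limma) was under 0.05 for 0 of the 10, beside 16.9% of all tested genes. The interaction was called for 0 of the 10, and for 0.0149% of tested genes in the lower direction and 0 in the higher. For Irg1 it was 0.73 (95% interval -1.74 to 3.20), for Srxn1 -1.60 (-4.07 to 0.87), for Slc7a11 -0.28 (-2.30 to 1.73), for Nfe2l2 0.26 (-1.34 to 1.86) and for Prdx5 0.57 (-1.26 to 2.39). These intervals leave room for differences of more than 2-fold in at least 1 direction for each gene. The median interaction over all tested genes was -1.18.

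Bcl2 against WT within a site gave 0 called among the 10 genes in BM and 0 in PT (limma). The unadjusted p was under 0.05 for 0 of the 10 at either site, beside 7.36% of all tested genes in BM and 12.7% in PT. Over all tested genes, 0.0149% were called higher and 0.00743% lower in BM, and 0% higher and 0.0297% lower in PT. When library 9 was left out, the PT shares were 0.015% higher and 0.113% lower. In BM the log2 differences of the 10 genes ran from -0.57 for Irg1 (95% interval -2.32 to 1.18) to 1.08 for Prdx1 (-0.72 to 2.89), beside a median of 0.49 over all tested genes. In PT they ran from -1.07 for Srxn1 (-2.81 to 0.68) to 0.80 for Prdx5 (-0.49 to 2.08), beside a median of -0.67. The PT difference of Prdx5 was 0.27 without library 9. Nfe2l2 in BM was the only gene whose values did not overlap between genotypes at either site, at 123 to 137 TPM in BM Bcl2 and 148 to 163 TPM in BM WT, where 1.17% of tested genes were separated in that direction. Its log2 difference there was -0.22 (-1.35 to 0.91).

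Promoters of the NRF2 system are shown because Nfe2l2 and Srxn1 rose while Gclm, Txnrd1 and Prdx1, which are also NRF2 targets, did not pass the test. The core of the antioxidant response element, TGACNNNGC on either strand, occurred in 12.4% of all promoters of the same length. The 9 genes with an entry had 11 promoters, and 5 of these held it. They were 1 each of Nfe2l2, Srxn1, Gclm, Prdx1 and Txnrd1. The AP-1 letters TGANTCA, which can overlap that core, occurred in 7.81% of promoters and in those of 2 of the genes. Positions count from the start site, whose base is 1 and whose preceding base is -1. In the stretches printed, capitals mark the antioxidant response element core in Nfe2l2 (-240 to -232), Gclm (-134 to -126) and Txnrd1 (-92 to -84), the AP-1 letters in Srxn1 (-102 to -96 and -45 to -39), and in Prdx1 the AP-1 letters (-237 to -231 and -131 to -125), the latter inside the core at -133 to -125. The Nfe2l2 stretch (chr2:75704865-75704913, minus strand) lies within an exon of the long non-coding RNA E030042O20Rik. The others are chr2:152105392-152105515 (Srxn1), chr3:122245393-122245461 (Gclm), chr4:116685349-116685504 (Prdx1) and chr10:82859084-82859152 (the second of 3 Txnrd1 promoters), all on the plus strand.
Nfe2l2: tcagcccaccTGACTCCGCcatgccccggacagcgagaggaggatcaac
Srxn1: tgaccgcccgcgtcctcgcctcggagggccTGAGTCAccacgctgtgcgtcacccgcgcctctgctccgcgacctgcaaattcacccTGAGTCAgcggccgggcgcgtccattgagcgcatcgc
Gclm: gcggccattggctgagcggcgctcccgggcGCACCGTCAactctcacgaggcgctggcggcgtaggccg
Prdx1: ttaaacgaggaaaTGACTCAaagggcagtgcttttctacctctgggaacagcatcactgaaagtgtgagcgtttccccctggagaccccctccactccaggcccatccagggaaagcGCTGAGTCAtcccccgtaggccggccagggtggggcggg
Txnrd1: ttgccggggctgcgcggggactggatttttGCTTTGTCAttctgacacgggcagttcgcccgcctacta
Srxn1 also held the core at 29 to 37, after its start. Slc7a11, Sod2 and Prdx5 held none of the searched letters in this window, which says only that these letters are not there. Genes with the core thus included Srxn1 and Nfe2l2, which rose, Gclm and Prdx1, whose groups overlapped, and Txnrd1, which separated in WT alone. Slc7a11 rose without the core in this window. A link between the core and the changes was not tested.

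The other genes of these pathways were counted from lists. Of 11 regulators and partners of NRF2, 2 were higher and 0 lower in PT in each genotype, where 1.59% of all tested genes were higher in WT and 2.31% in MRP8-Bcl2. With median centring 4 of the 11 were higher in MRP8-Bcl2, where 12.2% of all tested genes were. Sqstm1, whose product p62 binds KEAP1, rose by 2.75 in WT (limma adjusted p = 0.0171) and 2.39 in the transgenic mice (adjusted p = 0.01), with 19.3 to 23.7 TPM in WT marrow and 117 to 211 TPM in WT peritoneum. Bach1, a repressor at antioxidant response elements, rose by 2.86 in WT (adjusted p = 0.0245), a call lost when the dominant genes were left out, and its difference in the transgenic mice was 0.99 (adjusted p = 0.26), or 2.58 with median centring (adjusted p = 0.0188). Maff, a small MAF partner, rose by 3.62 in the transgenic mice (adjusted p = 0.0106), with 1.96 in WT (adjusted p = 0.268). Keap1 was at 0 to 12.3 TPM over the 12 libraries, with differences of -0.86 and -2.07 (adjusted p = 0.675 and 0.0965). The median of the list was 0.21 in WT and -0.90 in MRP8-Bcl2, close to the medians of all tested genes.

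Among the genes of the TCA cycle and of itaconate's precursors, 21 of 22 were tested. In WT 0 were called in either direction, and in MRP8-Bcl2 0 were higher and 13 lower, where 19.1% of all tested genes were lower. Sdhb, a subunit of the succinate dehydrogenase that itaconate inhibits, differed by 0.06 in WT (adjusted p = 0.98) and fell by 4.62 in MRP8-Bcl2 (adjusted p = 0.00165), where 2 of the 3 PT libraries listed it at 0. Sdhd, Ogdh and Idh1 fell in MRP8-Bcl2 as well, with log2 differences of -4.22, -3.66 and -3.73. These calls depended on the scaling. With each library centred on its median, 3 of the 21 were lower in MRP8-Bcl2, where 3.47% of all tested genes were. With quantile normalization 4 were lower, where 5.79% of all tested genes were. Sdhb, Sdhd and Ogdh were among them in both and Idh1 in neither.

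Of 18 tested glutathione genes, 0 were higher and 1 lower in WT, and 0 higher and 5 lower in MRP8-Bcl2, where 19.1% of all tested genes were lower. Mgst1, a microsomal glutathione transferase, fell in both, with a log2 difference of -3.63 in WT (limma adjusted p = 0.0129) and -2.20 in the transgenic mice (adjusted p = 0.038), though not in MRP8-Bcl2 under the other scalings. Mgst2, Gpx1 and Gpx3 were called lower in MRP8-Bcl2, with -3.58, -3.23 and -2.94, calls that median centring removed. In WT Mgst2 was at -2.45 (adjusted p = 0.0518) and was called lower under the 3 other scalings. With libraries centred on their median, 4 of the 18 were higher and 0 lower in MRP8-Bcl2, where 12.2% of all tested genes were higher and 3.47% lower. The calls of this list in MRP8-Bcl2 thus turned with the scaling, as did those over all tested genes. The list median lay below that of all tested genes both with median centring (0.001 beside 0.57) and without it (-1.59 beside -1.02). Of 10 tested thioredoxin and peroxiredoxin genes, Txnip, which encodes the inhibitor of thioredoxin, rose in both genotypes, by 3.09 (adjusted p = 0.0111) and 3.00 (adjusted p = 0.00388). WT marrow held 106 to 269 TPM of it and WT peritoneum 806.5 to 3096 TPM. Prdx2 and Prdx3 fell in MRP8-Bcl2, with -4.02 and -2.91, beside 1.40 and -1.56 in WT (not called), and the call of Prdx3 was lost with median centring and quantile normalization. Prdx2 is also a gene of erythroid cells, whose summed markers were higher in BM than in PT of both genotypes. The part of such cells in these differences was not tested.

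Of 8 tested genes for superoxide and peroxide removal, 0 were called in WT and 1 was higher and 2 lower in MRP8-Bcl2, where 2.31% and 19.1% of all tested genes were. Msrb1, a methionine sulfoxide reductase, rose by 1.93 (limma adjusted p = 0.0219), and Nqo2 and Park7 fell, with -3.19 and -3.09, calls that were lost with median centring and quantile normalization. Of 10 heme and iron genes, 1 was higher and 0 lower in WT, and 4 were higher and 4 lower in MRP8-Bcl2, beside 2.31% and 19.1% of all tested genes. With median centring 4 were higher and 0 lower there, beside 12.2% and 3.47% of all tested genes. Quantile normalization also gave 4 higher and 0 lower, beside 5.04% and 5.79%. Fth1, the ferritin heavy chain, rose by 2.67 in WT (adjusted p = 0.0199) and 3.24 in the transgenic mice (adjusted p = 0.00233), with 492 to 1528 TPM in WT marrow and 5496 to 7683 TPM in WT peritoneum. The WT call of Fth1 was lost with median centring. Ftl1, the ferritin light chain, and Slc40a1, the iron exporter ferroportin, rose in MRP8-Bcl2 by 2.50 and 2.14, with 1.75 and 1.51 in WT (adjusted p = 0.155 for each). Hmox2, the constitutive heme oxygenase, fell by 3.70 in MRP8-Bcl2 (adjusted p = 0.0101), but was not called there with median centring or quantile normalization.

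Of the 8 genes that supply NADPH, 0 were higher and 2 lower in WT, and 0 higher and 4 lower in MRP8-Bcl2, where 1.22% and 19.1% of all tested genes were lower. G6pdx, the first enzyme of the pentose phosphate pathway, was at 400.3 to 467 TPM in WT marrow and at 40.7 to 65.1 TPM in WT peritoneum. It fell, with -2.96 in WT (limma adjusted p = 0.00599) and -3.07 in the transgenic mice (adjusted p = 0.00165), the latter not called with median centring. Tkt, encoding transketolase, fell, with -3.09 (adjusted p = 0.0284) and -4.82 (adjusted p = 0.000974), and was called under every scaling tried. Pgls and Me2 were called lower in MRP8-Bcl2, with -3.78 and -3.55, and neither was called with median centring or quantile normalization. The list median was -1.68 in WT and -2.46 in MRP8-Bcl2. In the interaction and in both genotype comparisons 0 genes of these 7 lists were called.

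**Figure D3:**
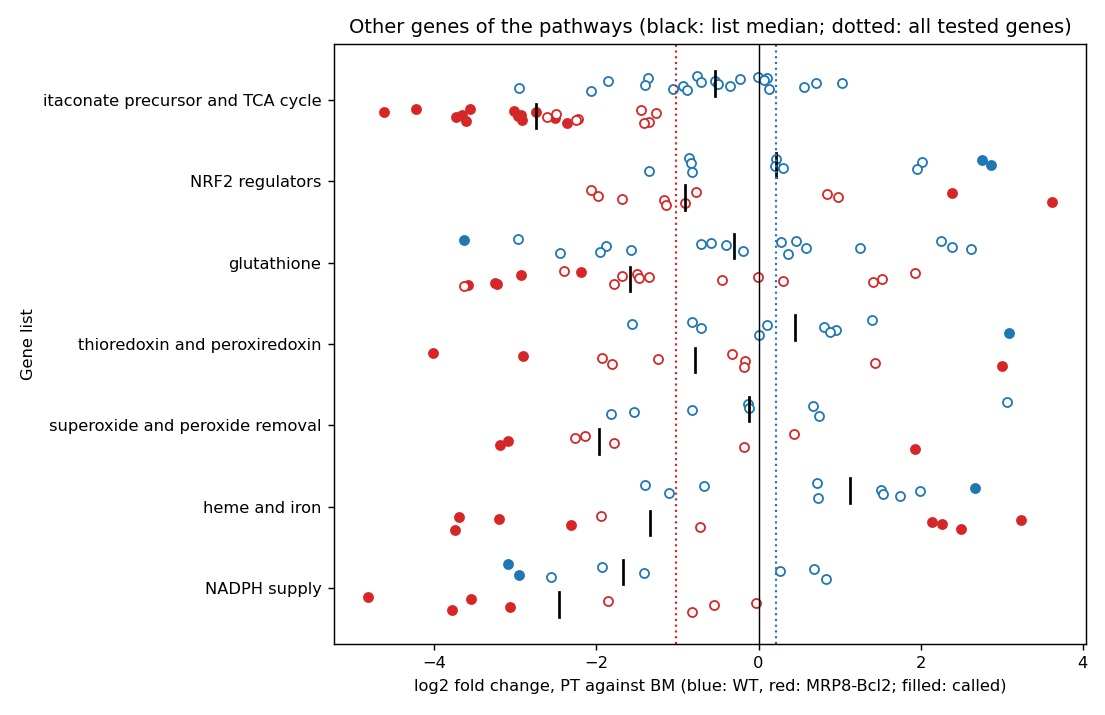
Difference between PT and BM on the log2(TPM + 1) scale for the tested genes of 7 pathway lists, with WT in blue and MRP8-Bcl2 in red, filled where called. Black bars give list medians and dotted lines the medians of all tested genes. In MRP8-Bcl2 13 of 21 TCA cycle genes are called lower, where 19.1% of all tested genes are. With median centring 3 of the 21 are called lower, and with quantile normalization 4.

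The effect of the settings on the 5 called genes was followed over 20 alternative fits for each comparison. Slc7a11 and Prdx5 were called in all 20 in both genotypes, as was Srxn1 in WT and Irg1 and Nfe2l2 in MRP8-Bcl2. Irg1 in WT was called in 19 and lost only without library 4 (adjusted p = 0.0577). Srxn1 in MRP8-Bcl2 was called in 18, and Nfe2l2 in WT in 9.

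**Figure D4:**
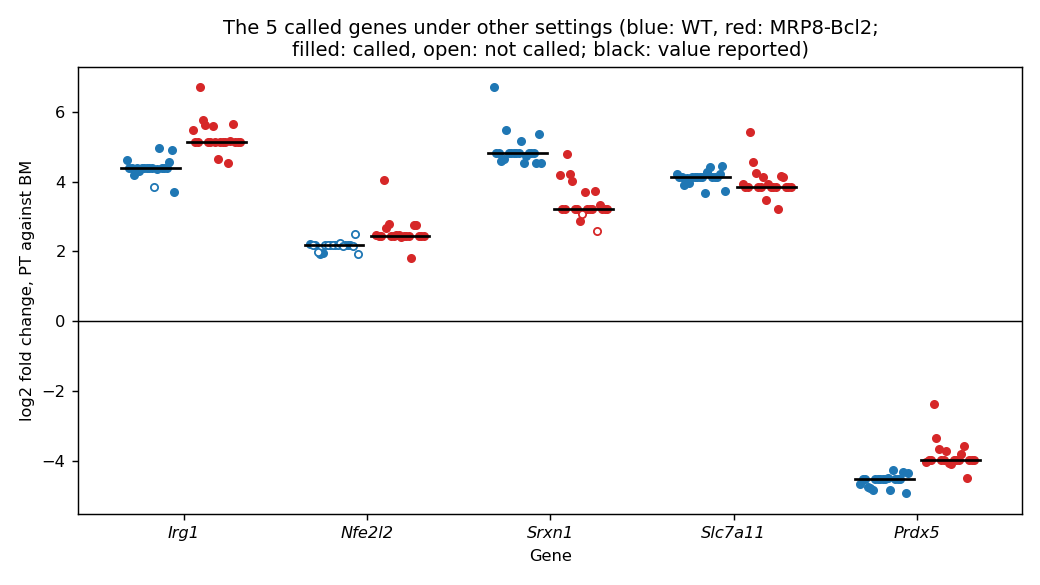
Difference between PT and BM on the log2 scale for the 5 called genes in each of 20 alternative fits, with WT in blue and MRP8-Bcl2 in red. Filled points were called, open points were not, and black bars give the reported value. Every value keeps its sign, and most open points belong to Nfe2l2 in WT.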

How the data were processed

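The RNA of sorted cells was amplified to cDNA and sequenced as paired-end reads, and the authors' reads went through AltAnalyze with its defaults. The deposited table holds log2(TPM + 1) per gene and library, which was turned back to TPM for levels. Its build and counting of strand are not given in the sources used here. Library groups came from column names of a deposited marker table. The authors' fold changes and p-values were not used, nor were 2 columns of per-sample values that name no sample.

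Genes that reached 1 TPM in 3 or more libraries were fitted in 1 model of 4 groups by limma (version 3.58.1, R 4.3.3) on log2(TPM + 1), using eBayes with a mean-variance trend and 8 residual degrees of freedom, with Benjamini-Hochberg adjustment over all 13456, and the script was tested on simulated data. The interaction was called at adjusted p alone. Alternatives changed the pseudocount, filter, scaling, threshold, trend and libraries. Gene positions are from GENCODE M21.

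The 10 genes and the lists were chosen with earlier results of these data known. Named genes were all 10, the 5 nearest to Irg1, Keap1, Bach1 and up to 4 called genes of each list by adjusted p. Slc3a2 was named after its values were seen.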

Additional observations from a re-analysis of the deposited data

How the results depend on the processing

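No paired analysis was possible because the library columns carry no replicate numbers. Of the counts of called genes among the 10, 1 moved by over 1.5 times: 2 genes were higher in PT of WT without library 4, so that leaving out a library gave 2 to 4. The difference of Prdx1 in MRP8-Bcl2, not called, turned from -0.09 to 1.495 with median centring, 0.41 with quantile normalization and 0.24 without the dominant genes, and lay between -0.86 and 0.65 without single libraries. The interaction of Slc7a11 turned to 1.52, 0.44 and 0.29 under the same 3 scalings (-0.90 to 0.16 without single libraries), and that of Srxn1 to 0.21 with median centring. Leaving out libraries also turned the uncalled differences of Gclm in WT (-0.15 to 0.60) and Sod2 in MRP8-Bcl2 (-0.063 to 0.71), and the interaction of Nfe2l2 (-0.37 to 0.58). The causes were not tested. Txnrd1 in MRP8-Bcl2 passed the test with median centring (2.94, adjusted p = 0.0227) and quantile normalization (2.02, adjusted p = 0.0318), and Hmox1 with both (3.11 and 1.84) and without the dominant genes (1.87).

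The scaling set the balance over all genes in MRP8-Bcl2. The 311 higher and 2567 lower genes became 1636 and 467 with median centring and 678 and 779 with quantile normalization, with a median difference of 0.57 under the former. In WT 214 and 164 became 112 and 197, and 233 and 264. TPM without read totals gives no depth, so a gene that was not called may still differ.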
